A study of Mus musculus with 4 samples.

Results

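Genes of the Wnt pathway were measured in cultures of fibro-adipogenic progenitors (FAPs), mesenchymal cells that lie between the fibres of mouse skeletal muscle, from 2 genotypes. Members were chosen by gene symbol: the Wnt ligands, the Frizzled receptors, the co-receptors Lrp5 and Lrp6, the R-spondins, the secreted frizzled-related proteins, the Dickkopfs, Axin1, Axin2, the naked cuticle genes Nkd1 and Nkd2, and the TCF/LEF factors. They made up 51 of 28649 genes: 19 ligands, 10 Frizzleds, 2 co-receptors, 4 R-spondins, 4 secreted frizzled-related proteins, 4 Dickkopfs, the scaffold Axin1, 3 feedback genes and 4 TCF/LEF factors. RNA was sequenced from 2 libraries of cells from miR-206 KO mice and 2 libraries of wild-type cells labelled C57Bl/6. All were Sca1-positive FAPs sorted from skeletal muscle, grown in DMEM with 20% fetal bovine serum, 10% horse serum and FGF at 5 ng/ml, and given 10% horse serum in DMEM for the last 48 hours. The labels do not give the background strain, the age or the allele of the KO mice, so a strain difference and the loss of miR-206 cannot be told apart.

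Wnt ligands are secreted lipid-modified proteins that bind a Frizzled receptor together with Lrp5 or Lrp6 and keep beta-catenin from destruction, so that it enters the nucleus and acts with TCF/LEF factors. R-spondins keep receptors at the cell surface, secreted frizzled-related proteins bind ligands outside the cell, Dickkopfs block the co-receptors, and Axin2, Nkd1 and Nkd2 are induced by the pathway and feed back on it. In mesenchymal progenitors this pathway is known for holding back fat formation and for its part in muscle fibrosis.

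miR-206 can repress messenger RNAs that hold a match to its seed, so its sequence and the matches in member 3' UTRs are shown before the values. The mature strand, from RefSeq (GRCm38.p6), lies at chr1:20679055-20679076 on the plus strand, and its seed, bases 2 to 8, is in capitals.
mmu-miR-206-3p: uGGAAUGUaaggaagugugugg
The longest annotated 3' UTR of each gene was searched on the sense strand for ACATTCCA (8mer), ACATTCC (7mer matching the seed) and CATTCCA (7mer matching bases 2 to 7 with an A beside it); an 8mer was counted once. Of the 38 members with enough reads to be tested, 9 held a match (23.7%), against 2623 of the 13778 tested genes for which a 3' UTR is annotated (19.0%). The tested members' 3' UTRs were longer, with a median of 1788.5 bases against 1190.5. All 9 were 7mers. The 7 in genes of at least 1 TPM in a genotype are given below from GENCODE M21 transcripts (mm10), with the match in capitals.
Sfrp1, chr8:23449473-23449501, plus strand: gaagatgttttACATTCCttctcattcct
Fzd1, chr5:4755017-4755045, minus strand: tgggccccgccCATTCCAgatcctcccct
Fzd3, chr14:65199262-65199290, minus strand: ctggggatctaACATTCCcttctggcctc
Fzd7, chr1:59485697-59485725, plus strand: ggttgagataaACATTCCtttttaaggaa
Rspo3, chr10:29453991-29454019, minus strand: ctgtctaaacaACATTCCtaatagttgct
Nkd2, chr13:73818547-73818575, minus strand: ccgatctatgtACATTCCcaaataaactg
Tcf7l2, chr19:55931777-55931805, plus strand: acttcttccttACATTCCcacaactcgct
The match in Sfrp1 lay near the end of its 3' UTR, at bases 2996 to 3002 of 3144, and that in Fzd1 at bases 618 to 624 of 1813. The remaining 2 tested members with a match were Lef1 and Wnt10a. A match is a run of letters and does not show that the transcript is bound.

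Library totals ran from 30550235 to 44561117 estimated counts. Replicates of a genotype differed by more than sampling noise, with a chi-square per gene of 38.3 for the KO pair and 28.7 for the wild-type pair, where 1 is sampling noise. The labels leave unsaid whether replicates are different animals or cultures, and the p-values reflect the spread of these libraries alone, which may be technical. FAP markers were abundant: Pdgfra had between 1455 and 1959 CPM (counts relative to a TMM-normalized library total) and Ly6a, the Sca1 gene, between 656.8 and 1234, while Tcf21 stayed under 0.3 CPM. Of the 8 FAP markers, 3 were higher in both KO libraries (background over all genes 23.8%) and 1 was lower (background 24.4%). By the edgeR test given below, 0 passed. Pdgfra, Lum and Dcn had log2 fold changes of 0.38, 0.42 and 0.49, and Ly6a one of -0.61. Cd34, Col1a1, Osr1 and Tcf21 overlapped. Muscle-lineage markers set KO replicate 2 apart. Their summed level over 16 genes was 2146 and 237.1 CPM in KO and 4074 and 2347 CPM in wild type. Of the 16, 11 were lower in both KO libraries (background 24.4%), and 0 passed. Adipocyte markers summed to 1497 and 1037 CPM in KO and 2642 and 2089 CPM in wild type. Most of this was Lpl, with 1398 and 979.3 CPM in KO and 2138 and 1865 CPM in wild type. Its log2 fold change was -0.75, while the other tested markers lay between -1.49 (Pparg) and -3.93 (Cidec). Of the 10, 9 were lower in both KO libraries (background 24.4%), and 1 passed, Cidec (edgeR adjusted p = 0.0468). Satellite cell Pax7 was near the floor, with 19 and 0 counts in KO and 6 and 11 in wild type. The macrophage gene Adgre1 was at 0 in every library. The 5 hematopoietic markers together summed to 6.832 and 6.12 CPM in KO and 3.337 and 3.894 CPM in wild type. Of the 5, 2 were higher in both KO libraries (background 23.8%) and 0 passed. These were Ptprc and Csf1r, with log2 fold changes of 2.29 and 1.36, while Cd68 overlapped. In bulk RNA, fewer cells of a type and less RNA per cell cannot be told apart. The part of these markers in the Wnt results was not tested. The fits without single libraries given below do not test it, since without KO replicate 2 the muscle and adipocyte sums still lay lower in KO.

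No Wnt member passed the test between genotypes. Of 38 tested members, 0 had an adjusted p under 0.05 in edgeR (quasi-likelihood F-test, Benjamini-Hochberg over 14507 genes), where 62 genes did (0.427%). An unadjusted p under 0.05 was found in 10 members (26.3%), 6 of them with the KO higher and 4 with the KO lower, against 14.3% of all genes, 7.16% higher and 7.18% lower. In 11 members both KO libraries lay above both wild-type libraries (28.9%, background 23.8%), and in 8 both lay below (21.1%, background 24.4%). Wnt2, among the 11, had enough reads to be tested only through its KO libraries, and Fzd10, among the 8, only through wild type. That choice by reads favours the direction seen in these genes, including Fzd10 in the count by p. The median log2 fold change of the tested members was 0.06, from 20 above 0 and 18 below, against 0.00 and 49.6% above 0 over all genes. DESeq2 called 3 members, Fzd1, Sfrp1 and Fzd2, against 4.81% of all genes, and limma-voom called 0 members against 0.0965% of all genes.

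**Figure D1:**
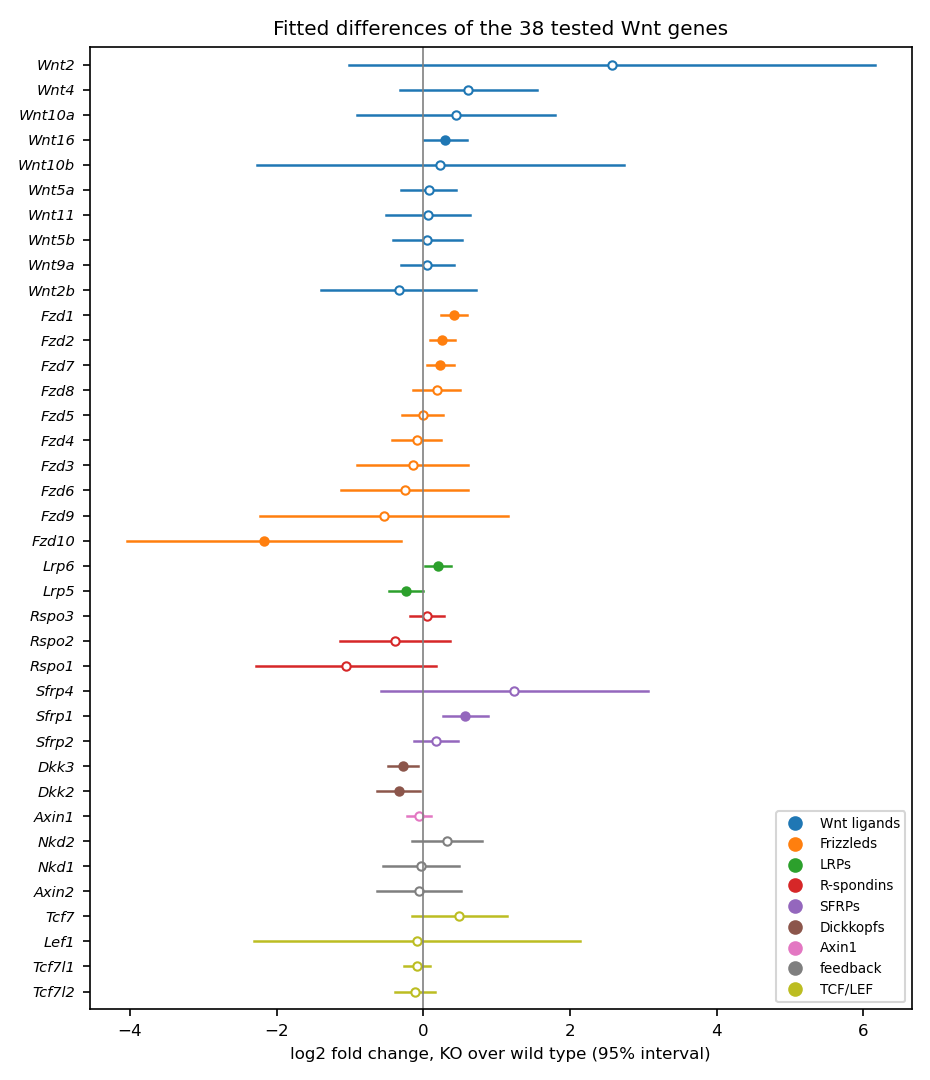
Fitted log2 fold change of KO over wild type for the 38 tested members, grouped and coloured by role, with bars for 95% intervals from edgeR's quasi-likelihood fit on 2 libraries per genotype; filled points had an unadjusted p under 0.05. Intervals are narrow for abundant genes such as Fzd1, Fzd2 and Sfrp1 and wide for scarce genes such as Wnt2, Wnt10b, Fzd10 and Lef1. The abundant Sfrp4 also has a wide interval, -0.58 to 3.06.

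Secreted frizzled-related proteins held most of the members' transcripts. On the deposited TPM scale, which corrects for transcript length and so allows genes to be compared, the members summed to 1986.0 and 1999.3 TPM in the KO libraries and to 1470.4 and 1599.4 TPM in wild type. Secreted frizzled-related proteins made up 1314 and 1285 TPM of this in KO and 802.4 and 947.4 TPM in wild type. The Frizzleds followed with 256.4 and 275.7 TPM in KO and 223.0 and 218.6 TPM in wild type, so that for these families the KO libraries lay above the wild-type libraries. The Dickkopfs summed to 77.77 and 93.36 TPM in KO and lay lower than in wild type, at 105.0 and 104.5 TPM. Wnt ligands summed to only 60.19 and 70.90 TPM in KO and 54.67 and 63.15 TPM in wild type, with overlapping genotypes. These sums are descriptions with no test.

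**Figure D2:**
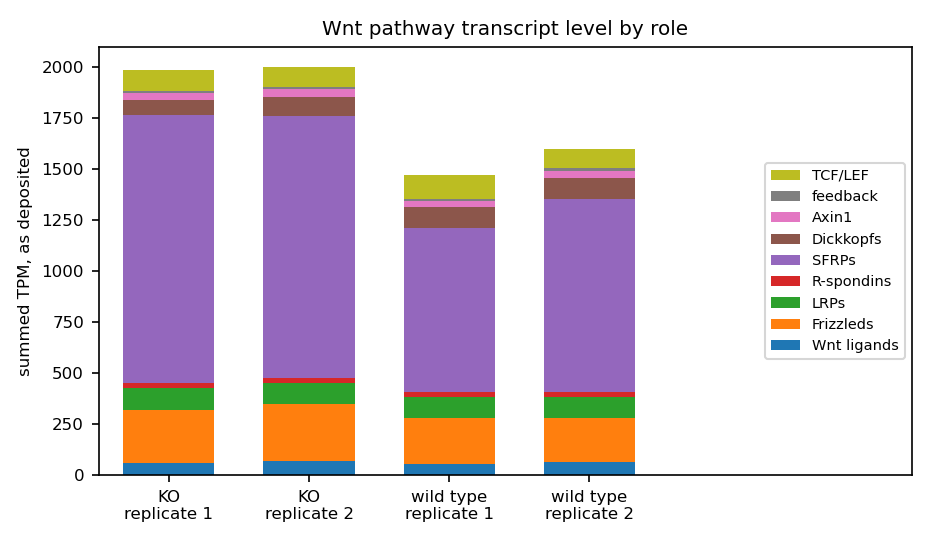
Summed deposited TPM of the 51 members in each library, stacked by role from Wnt ligands at the bottom to TCF/LEF factors at the top. The KO bars reach 1986.0 and 1999.3 TPM and the wild-type bars 1470.4 and 1599.4 TPM, and the segment of secreted frizzled-related proteins holds most of each bar.

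**Figure D3:**
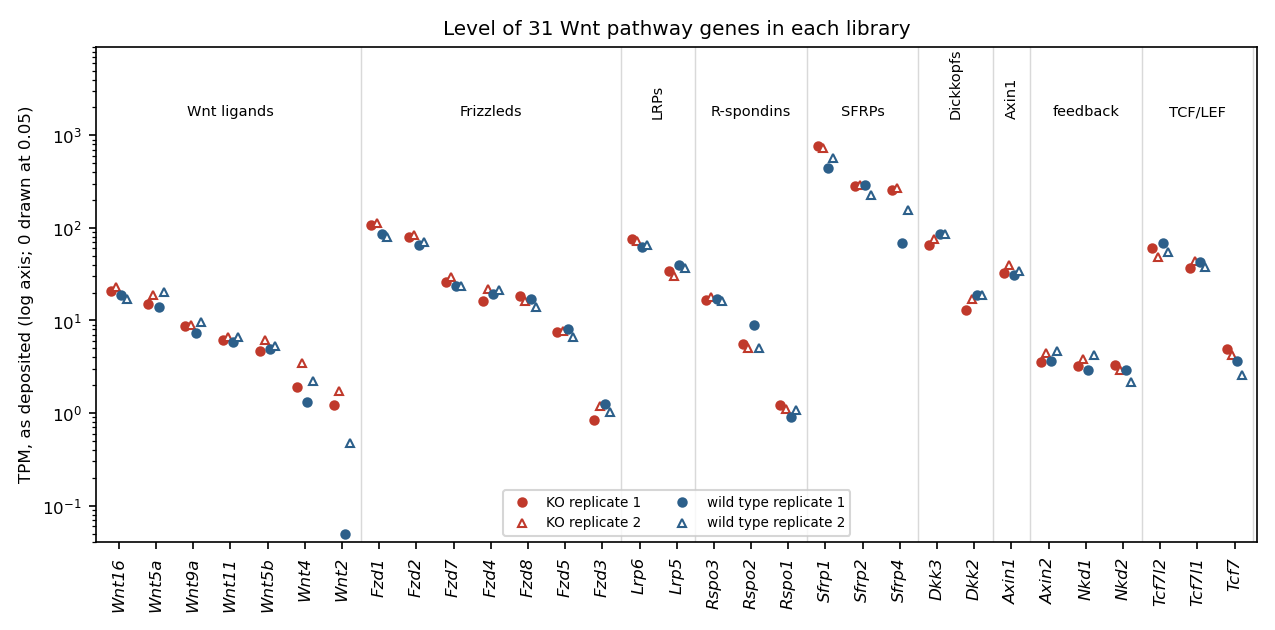
Deposited TPM on a log axis for the 31 members that averaged 1 TPM or more in KO or wild type, 1 point per library (red KO, blue wild type; filled circle replicate 1, open triangle replicate 2), ordered by role and then by level. Sfrp1 has the highest level, and Sfrp4 and Wnt2 show wide gaps between the wild-type libraries.

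Among the secreted frizzled-related proteins, Sfrp1 (chromosome 8, 23411502 to 23449632) had the highest level of the 51 members. It had 771.4 and 724.4 TPM in the KO libraries and 446.6 and 565.1 TPM in wild type, and its reads were between 37.9% and 48.4% of all member reads. In CPM it had 2076 and 1897 in KO and 1190 and 1485 in wild type, so that the genotypes did not overlap. The log2 fold change was 0.57 (SE 0.13, 95% interval 0.26 to 0.88, a fold of 1.49), with an unadjusted p of 0.0036 and an edgeR quasi-likelihood adjusted p of 0.129. Muscle-lineage and adipocyte marker sums, given above, were lower in KO, the adipocyte sum being mostly Lpl. Of the FAP markers, Pdgfra, Lum and Dcn were higher in KO, at 0.38, 0.42 and 0.49 log2. Ly6a was lower at -0.61, and Cd34, Col1a1, Osr1 and Tcf21 overlapped. Without KO replicate 2, the library with few muscle transcripts, the log2 fold change of Sfrp1 was 0.64. Without wild type replicate 1, which has the highest muscle and adipocyte sums, it was 0.42. Leaving out a library does not test the part of these markers.

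Sfrp4 had the largest fitted difference among abundant members, but the wild-type libraries disagreed about its level. It had 263.0 and 267.3 CPM in KO and 69.11 and 154.9 CPM in wild type, where replicate 1 held 0.446 of the level of replicate 2. The log2 fold change was 1.24 (SE 0.52, 95% interval -0.58 to 3.06, edgeR adjusted p = 0.468). It was 0.77 without wild type replicate 1 (edgeR adjusted p = 0.0457) and 1.94 without wild type replicate 2 (edgeR adjusted p = 0.00693). In these fits the lone wild-type library is assumed to vary like the KO libraries, which lay close together, so the spread between the wild-type libraries no longer counts. Without KO replicate 1 or 2 the adjusted p was 0.43 and 0.452.

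Sfrp2, a secreted inhibitor typical of fibroblasts, had 276.7 and 290.5 CPM in KO and 281.5 and 221.9 CPM in wild type. The genotypes overlapped, and the log2 fold change was 0.17 (95% interval -0.13 to 0.47), or 0.35 when wild type replicate 1 was left out and 0.01 when replicate 2 was. As a share of the TPM of this family's members, Sfrp4 held 19.5% and 21.0% in KO and 8.52% and 16.3% in wild type. Sfrp1 held between 55.7% and 59.7% in every library. Sfrp5 had 0 counts in all 4 libraries.

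The Dickkopfs with reads lay on the lower side. Dkk3, a divergent family member that unlike Dkk1 is not known for blocking the co-receptors, had 132.4 and 151.7 CPM in KO and 174.3 and 170.5 CPM in wild type. Dkk2, which binds Lrp6, had 29.44 and 37.31 CPM in KO and 42.04 and 42.09 CPM in wild type. Both were lower in each KO library than in either wild-type library, with log2 fold changes of -0.28 (95% interval -0.48 to -0.07) and -0.33 (95% interval -0.63 to -0.04). The unadjusted p was 0.0152 and 0.0321, and the edgeR adjusted p was 0.22 and 0.296. Without KO replicate 1 the fold changes shrank to -0.18 and -0.17 log2, and without KO replicate 2 they were -0.38 and -0.51. Dkk1 and Dkk4 had at most 1 count in a library.

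**Figure D4:**
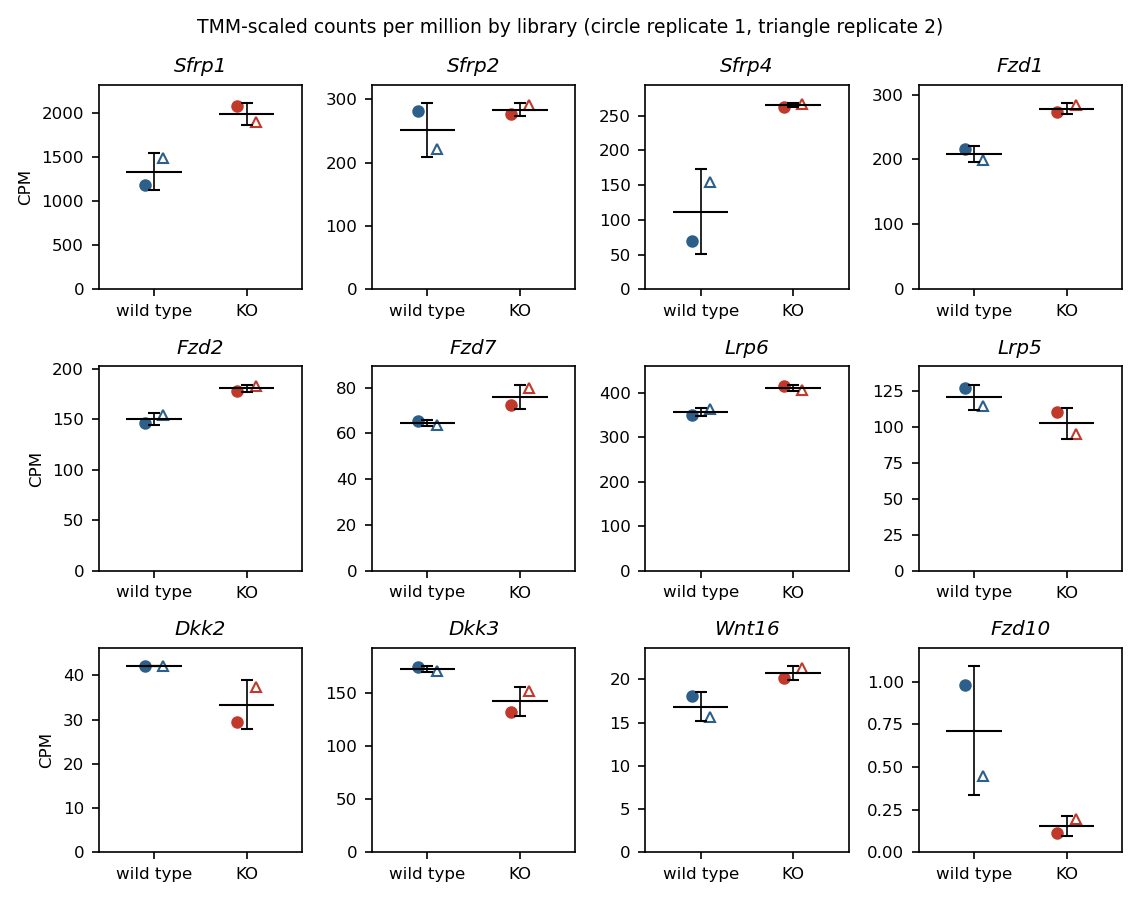
CPM on linear axes from 0 for the 10 members with an unadjusted p under 0.05 plus Sfrp2 and Sfrp4, 1 point per library (blue wild type, red KO; circle replicate 1, triangle replicate 2), with the mean and SD of 2 libraries in black. The genotypes overlap in Sfrp2. That they do not in the 10 genes chosen by p follows largely from that choice (over all genes 23.8% lie above and 24.4% below without overlap). Sfrp4, with an unadjusted edgeR p of 0.11, does not overlap either.

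Of the Frizzled receptors, 7 of 10 reached 1 TPM. Fzd1 and Fzd2 carried most of the family, with 41.5% and 41.4% of its TPM from Fzd1 in KO and 38.4% and 36.6% in wild type, and between 29.6% and 32.3% from Fzd2. Fzd1 (chromosome 5, 4753839 to 4758035) had 272.6 and 284.3 CPM in KO and 216.6 and 199.6 CPM in wild type. Its log2 fold change was 0.42 (SE 0.08, 95% interval 0.24 to 0.60, a fold of 1.34). It had the smallest edgeR adjusted p of all members, 0.0792 (unadjusted 0.00121, place 217 of 14507 genes). This difference held its direction and size in each fit without a library, between 0.36 and 0.48 log2 (edgeR adjusted p from 0.175 to 0.267).

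Fzd2 and Fzd7 had smaller differences of the same sign. Fzd2 had 177.8 and 183.1 CPM in KO and 146.4 and 154.5 CPM in wild type, a log2 fold change of 0.26 (SE 0.07, edgeR adjusted p = 0.171). Fzd7, a receptor known from muscle satellite cells, had 72.33 and 79.77 CPM in KO and 65.49 and 63.71 CPM in wild type, a log2 fold change of 0.24 (SE 0.08, edgeR adjusted p = 0.253). In both genes the KO libraries lay above the wild-type libraries. Without single libraries their log2 fold changes ran from 0.22 to 0.30 and from 0.17 to 0.31. Fzd8 had 37.54 and 32.44 CPM in KO and 34.05 and 27.68 CPM in wild type, with overlap and log2 fold changes from 0.04 to 0.34 without single libraries. Fzd4, Fzd5 and Fzd3 overlapped as well, with log2 fold changes of -0.09, -0.01 and -0.14 and 95% intervals of -0.42 to 0.24, -0.29 to 0.28 and -0.90 to 0.61.

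The scarce Frizzleds were Fzd6, Fzd9 and Fzd10, each under 1 TPM in both genotypes. Fzd10 had 4 and 6 counts in the KO libraries and 35 and 20 in wild type. Only through wild type did it have enough reads to be tested. Its log2 fold change of -2.17 had a wide 95% interval of -4.04 to -0.30 (edgeR adjusted p = 0.285). Fzd9 had 40 and 11 counts in KO and 53 and 33 in wild type, with overlap. Fzd6 had between 46 and 87 counts per library.

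The co-receptors, which pair with Frizzleds, went opposite ways. Lrp6 had 415.8 and 405.4 CPM in KO and 350.0 and 363.5 CPM in wild type, a log2 fold change of 0.20 (95% interval 0.03 to 0.38). Lrp5 had 109.9 and 94.69 CPM in KO and 126.7 and 114.5 CPM in wild type, a log2 fold change of -0.24 (95% interval -0.47 to -0.00). The difference of Lrp5 was -0.13 without KO replicate 2, and that of Lrp6 lay between 0.17 and 0.23 without single libraries. In neither gene did the genotypes overlap, and the edgeR adjusted p was 0.284 and 0.342. On the TPM scale Lrp6 held 68.8% and 70.7% of the pair in KO and 60.9% and 64.4% in wild type, and their sum was nearly level, from 102.8 to 109.5 TPM.

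Wnt ligands of at least 1 TPM numbered 7. Of the 10 tested ligands, 9 had a log2 fold change above 0 (background 49.6%), a description only, as ligands are not replicates. Wnt2, 1 of the 9, had enough reads to be tested only through its KO libraries. The fold changes of Wnt5a, Wnt5b, Wnt9a and Wnt11 lay near 0 and changed sign in fits without single libraries. Wnt16 and Wnt5a led on the TPM scale, Wnt16 with between 26.7% and 35.0% of ligand TPM and Wnt5a with between 25.0% and 32.3%. Wnt16, a ligand known from bone and joint tissue, had 20.20 and 21.31 CPM in KO and 18.06 and 15.64 CPM in wild type, without overlap. Its log2 fold change was 0.30 (SE 0.12, 95% interval 0.01 to 0.59, edgeR adjusted p = 0.329). Wnt5a, the best known ligand of the beta-catenin-independent branch, had 33.34 and 43.44 CPM in KO and 33.80 and 39.07 CPM in wild type, with overlap and a 95% interval of -0.30 to 0.45 log2. The ligands Wnt5b, Wnt11 and Wnt9a also overlapped, with log2 fold changes of 0.06, 0.07 and 0.06 and 95% intervals within -0.50 to 0.64.

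Wnt4 and Wnt2 were scarcer and varied between replicates. Wnt4 had 4.979 and 8.707 CPM in KO and 3.366 and 5.528 CPM in wild type, with overlap. Its log2 fold change was 0.62 (95% interval -0.32 to 1.55), 0.16 without KO replicate 2 and 1.02 without wild type replicate 2. Wnt2 had 57 and 69 counts in the KO libraries and 0 and 28 in wild type. The wild-type libraries thus ranged from no read to 0.6266 CPM, and the log2 fold change of 2.57 carried an SE of 1.32 (edgeR adjusted p = 0.483). It was 1.63 without wild type replicate 1. The fit without wild type replicate 2 compares with a library at 0 and gives no usable fold.

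Ligands under 1 TPM in both genotypes included Wnt10a, Wnt10b and Wnt2b, with log2 fold changes of 0.45, 0.23 and -0.34 and edgeR adjusted p of 0.772, 0.945 and 0.786. Wnt10b, an inhibitor of adipogenesis in mouse, had 4 and 38 counts in the KO libraries and 20 and 26 in wild type, with overlap. Another 9 ligands did not pass the filter on low counts. Of the 13 untested members in all, 6 (Dkk4, Sfrp5, Wnt3a, Wnt7a, Wnt8b and Wnt9b) had 0 counts in all libraries, which allows up to 3 counts or 0.0673 to 0.0982 CPM per library. The other 7 had at most 10 counts in a library. That limit covers counting error only.

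R-spondins, which potentiate Wnt signals through Lgr receptors, were led by Rspo3. It held between 63.5% and 74.3% of the family's TPM, with 24.11 and 24.61 CPM in KO and 24.23 and 22.69 CPM in wild type. The genotypes overlapped, with a log2 fold change of 0.05 (95% interval -0.17 to 0.28). Rspo2 had 11.29 and 9.885 CPM in KO and 17.70 and 10.00 CPM in wild type, where replicate 1 alone stood high. Its log2 fold change was -0.38 (95% interval -1.14 to 0.37) and turned to 0.08 without wild type replicate 1. Rspo1 had 18 and 15 counts in KO and 35 and 50 in wild type, a log2 fold change of -1.05 (95% interval -2.28 to 0.18, edgeR adjusted p = 0.42). Its TPM went the other way, with 1.220 and 1.113 in KO and 0.9167 and 1.066 in wild type. Reads per TPM, taken relative to the median gene of the library, were 0.293 and 0.312 in KO and 0.744 and 0.733 in wild type, so the deposited estimates assume a shorter transcript in the KO libraries.

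Axin1, the scaffold of the complex that destroys beta-catenin, had 52.88 and 53.81 CPM in KO and 55.50 and 55.41 CPM in wild type. Its log2 fold change was -0.06 (95% interval -0.22 to 0.11), and on the TPM scale its sign was positive. The feedback genes, whose transcripts follow pathway activity in many tissues, were scarce. Axin2 had 6.889 and 7.921 CPM in KO and 6.058 and 9.310 CPM in wild type. Nkd1 had 8.539 and 9.885 CPM in KO and 7.657 and 11.10 CPM in wild type. Both had a wider gap between the wild-type libraries than between genotypes, with log2 fold changes of -0.06 (95% interval -0.63 to 0.52) and -0.03 (95% interval -0.54 to 0.49). Nkd2 had 6.976 and 6.972 CPM in KO and 6.254 and 4.879 CPM in wild type, without overlap and with a log2 fold change of 0.33 (95% interval -0.15 to 0.81, edgeR adjusted p = 0.516). It was 0.51 when wild type replicate 1 was left out and 0.16 when replicate 2 was.

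The TCF/LEF factors, which carry beta-catenin to its target genes, were led by Tcf7l2, a known marker of muscle connective tissue fibroblasts. It had 83.88 and 68.31 CPM in KO and 85.68 and 78.91 CPM in wild type, with overlap and a log2 fold change of -0.11 (95% interval -0.39 to 0.16). Tcf7l1, mainly a repressor, had 58.79 and 57.41 CPM in KO and 63.67 and 59.62 CPM in wild type, a log2 fold change of -0.09 (95% interval -0.26 to 0.09). Tcf7, often itself induced by Wnt, had 6.339 and 5.270 CPM in KO and 4.992 and 3.267 CPM in wild type. Both KO libraries of Tcf7 lay above the wild type, but its log2 fold change of 0.49 had a 95% interval of -0.16 to 1.15 (edgeR adjusted p = 0.474). It was 0.83 when wild type replicate 1 was left out and 0.22 when replicate 2 was. Lef1 had between 4 and 19 counts per library, with overlap.

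Members with a miR-206 seed match, shown above with their sequences, included the 2 of smallest adjusted p, Fzd1 and Sfrp1, and also Fzd7 and Nkd2. Their log2 fold changes were 0.42, 0.57, 0.24 and 0.33. Rspo3, Tcf7l2, Fzd3, Lef1 and Wnt10a completed the 9, at 0.05, -0.11, -0.14, -0.08 and 0.45. Over the 9 the median was 0.24 log2, with 6 above 0, and 5 had both KO libraries above the wild type (background 23.8%) and 0 below (background 24.4%). The 29 tested members with no match had a median of -0.01 log2, with 6 above (20.7%) and 8 below (27.6%). The difference between these groups was not tested. Over the 2623 tested genes with a match the median was 0.00 log2, with 24.4% above and 24.4% below, and over the 11155 with a 3' UTR and no match these shares were 24.1% and 24.9%. Sfrp2, Sfrp4, Fzd2 and Lrp6, with values of 0.17, 1.24, 0.26 and 0.20 log2, held no match.

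**Figure D5:**
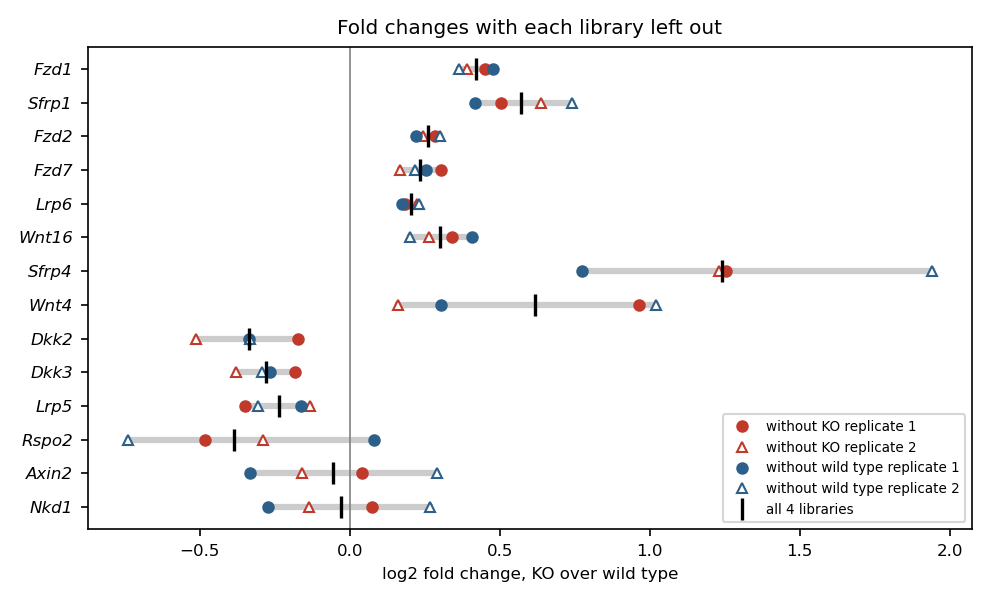
Log2 fold change of KO over wild type for 14 members with all 4 libraries (black bar) and with each library left out (red, a KO library; blue, a wild-type library; filled circle replicate 1, open triangle replicate 2). Fzd1 stays between 0.36 and 0.48, Sfrp4 spans 0.77 to 1.94, and Axin2, Nkd1 and Rspo2 cross 0.

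Other Wnt pathway genes were taken from a list of 75 outside the members. Of these 67 were tested, 0 passed over all genes by edgeR, and limma-voom called 0. An unadjusted p under 0.05 was found in 16 (23.9%, background 14.3%), 12 with the KO higher and 4 lower, and DESeq2 called 5 (background 4.81%). The median log2 fold change was 0.07, and 25 had both KO libraries above the wild type (37.3%, background 23.8%) and 15 below (22.4%, background 24.4%).

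Of 11 tested receptors outside the Frizzled family, 6 had both KO libraries above the wild type (54.5%, background 23.8%) and 0 below (background 24.4%). Ror1, a receptor tyrosine kinase that binds Wnt5a, had 45.47 and 58.92 CPM in KO and 28.78 and 36.88 CPM in wild type, a log2 fold change of 0.67 (SE 0.18, edgeR adjusted p = 0.234). Lgr5, a receptor of R-spondins, had 9.754 and 12.14 CPM in KO and 6.142 and 6.602 CPM in wild type, a log2 fold change of 0.78 (SE 0.17, edgeR adjusted p = 0.129). Ror2, a relative of Ror1, and Ptk7, a polarity co-receptor, were at 0.31 and 0.22 log2. Adgra2, a co-receptor for Wnt7 ligands and the most abundant of this group, was at 0.34 log2 (95% interval -0.05 to 0.73), and at 0.16 when wild type replicate 1 was left out and 0.55 when replicate 2 was. Without wild type replicate 2, Ror2 was at 0.20.

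Of 12 tested target genes, 7 had both KO libraries above the wild type (58.3%, background 23.8%) and 2 below (16.7%, background 24.4%). Fgf18, a growth factor, had 15.54 and 13.32 CPM in KO and 7.012 and 9.466 CPM in wild type, a log2 fold change of 0.81 (SE 0.19, edgeR adjusted p = 0.137). Bambi, a decoy receptor of the TGF-beta family, had 12.62 and 12.01 CPM in KO and 7.629 and 8.303 CPM in wild type, a log2 fold change of 0.63 (SE 0.14, edgeR adjusted p = 0.13). Wisp2, a matricellular gene, had 399.0 and 273.1 CPM in KO and 220.2 and 211.5 CPM in wild type, and its log2 fold change went from 0.64 to 0.34 without KO replicate 1. Ccnd1, the cyclin D1 gene, was lower in both KO libraries, with 93.93 and 114.4 CPM against 132.5 and 131.7 CPM, a log2 fold change of -0.34 (edgeR adjusted p = 0.217), or -0.21 without KO replicate 1.

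Among secretion genes and inhibitors, Porcn, the enzyme that adds the lipid to Wnts, was at 0.27 log2 and Wls, which carries Wnts to the surface, at 0.11. The inhibitors Frzb and Apcdd1 were at 0.60 and 0.37 log2 with both KO libraries higher (Apcdd1 0.21 without wild type replicate 2). Frzb is itself a secreted frizzled-related protein, which the choice of members by symbol left out. The abundant Igfbp4 was at 0.24 log2 with a 95% interval of -0.54 to 1.02. Of 17 tested transducers, 8 had both KO libraries below the wild type (47.1%, background 24.4%) and 5 above (29.4%, background 23.8%), with a median of -0.08 log2. Ctnnb1, the beta-catenin gene, had 758.2 and 791.8 CPM in KO and 778.3 and 807.0 CPM in wild type, with a 95% interval of -0.22 to 0.16 log2. Apc, a scaffold of the destruction complex, was at -0.26 log2 and its kinase partner Csnk1a1 at 0.18. The corepressor gene Aes was at -0.03. In the polarity branch, Prickle2 was at 0.34 log2, the formins Daam1 and Daam2 at -0.32 and -0.67 (Daam2 -0.40 without wild type replicate 1), and Vangl1 at 0.09. None of these passed (edgeR adjusted p from 0.158 to 0.891).

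The authors' deposited table of genotype means lists 31 members, and its log2 differences had the same sign as the fit except for Axin1, Fzd5, Rspo1, Tcf7l1 and Wnt5a. For 2 members, Wnt2 and Rspo1, it writes the wild-type mean, which is under 1 TPM, as 0. The authors' deposited table therefore gives Wnt2 a log2 difference of 0.57 and Rspo1 one of 0.22, which are the log2 of the KO means alone.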

How the data were processed

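Total RNA of 4 libraries was sequenced after a stranded mRNA preparation, per the labels' protocols. FastQC, kallisto and mm10 are named in the submitters' processing notes; versions, annotation and the summing to genes: not given in the sources used here. Estimated counts per gene and TPM values were used as the authors deposited them; counts were not normalized. The authors' deposited mean TPM signal per genotype, with means under 1 written as 0 (true of all 12078 genes in that table), and their log2 differences were only quoted.

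Rounded estimated counts went into edgeR 4.0.16 under R 4.3.3 (TMM, filterByExpr, robust quasi-likelihood F-test, two-sided, Benjamini-Hochberg over 14507 genes, threshold 0.05). The standard error is the size of the log2 fold change over the square root of F, and 95% intervals use the fit's degrees of freedom. DESeq2 1.42.0 and limma 3.58.1 served as alternatives, and the fit was tested on simulated data. All 51 members matched GENCODE M21 by transcript; coordinates count from 1. Members and lists were chosen with earlier results of these data known. Named were members of at least 1 mean TPM in a genotype, listed pathway genes with an unadjusted p under 0.05 and at least 1 mean TPM, and the most abundant gene of each list; others are named for their low counts or a seed match.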

Additional observations from a re-analysis of the deposited data

How the results depend on the processing

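The count of genes called was 62 and became 133 with library size alone, 491 with no low-count filter, 698 with DESeq2, 14 with limma-voom, 11 without robust estimation, 6 with log2(TPM + 1) and 6 with log2(TPM + 0.1), and from 7 to 77 without single libraries. Members called were 0, and 2 with no filter (Fzd1 and Sfrp1), 3 with DESeq2 and from 0 to 1 without single libraries (Sfrp4). Other pathway genes called were 0, and 2 with no filter (Lgr5 and Fgf18) and 5 with DESeq2 (Wisp2, Bambi, Ror1, Lgr5 and Fgf18). The replicate numbers are not said to pair libraries (correlation of same-numbered deviations 0.187 across genes). With the replicate number as a block, 265 genes, 0 members and 2 other pathway genes (Ror1 and Daam2) were called. The members' median was from 0.025 to 0.122 without single libraries. The other pathway genes' median was 0.037 with library size alone, which put the median of all genes at -0.041, then 0.016 and 0.017 on the 2 TPM scales, and from 0.051 to 0.070 without single libraries. Signs reversed for Fzd5 with limma-voom (0.013), and with log2(TPM + 1) and log2(TPM + 0.1) Axin1 (0.136, 0.14), Fzd5 (0.034, 0.038), Rspo1 (0.123, 0.217), Tcf7l1 (0.002, 0.002), Wnt5a (-0.02, -0.02) and Vangl1 (-0.114, -0.119). Without single libraries, ranges that cross 0 were -0.332 to 0.29 for Axin2, -0.385 to 0.068 for Fzd3, -0.28 to 0.081 for Fzd4, -0.151 to 0.151 for Fzd5, -0.271 to 0.267 for Nkd1, -0.74 to 0.081 for Rspo2, -0.268 to 0.031 for Tcf7l2, -0.148 to 0.271 for Wnt11, -0.126 to 0.253 for Wnt5a, -0.142 to 0.237 for Wnt5b, -0.121 to 0.258 for Wnt9a and -0.191 to 0.575 for Igfbp4. The cause was not tested. Searching all annotated 3' UTRs left 12 of 51 members with a seed match.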

Other observations

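The KO libraries of Wnt10b lay on either side of the wild type, at 0.1158 and 1.244 CPM against 0.5609 and 0.5819 CPM. Lef1 had 14 and 4 counts in KO and 5 and 19 in wild type. Fzd9 in KO and Fzd10 in wild type also differed between replicates, by ratios of 3.22 and 2.19 for replicate 1 over replicate 2.

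Reads per TPM, relative to the median gene of each library, measure the transcript length that the deposited estimates assume for a gene. Of 37 members with values in all libraries, 2 differed between genotypes by more than 0.2 log2 in this ratio (5.41%, against 9.88% of 14353 tested genes). These were Rspo1, at -1.29 log2, and Lef1, at 0.34 log2 on few counts. Axin1 was next at -0.19, with 1.12 and 0.969 in KO and 1.25 and 1.14 in wild type.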
